A study of Rattus norvegicus with 9 samples.

Results

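Fc receptors bind the constant tail of antibodies and tell a macrophage whether to engulf, ignore or recycle what the antibody has caught. The genes described here were the Fc gamma receptors Fcgr1a, Fcgr2a, Fcgr2b and Fcgr3a, their signalling chain Fcer1g, the antibody transport receptor Fcgrt and the kinase Syk, 7 of the 28343 genes in the deposited count table. They were chosen by name, whatever their values, and all 7 had a row. The libraries came from CD11b-positive cells sorted from the retina of Dark Agouti rats. The diabetic group (4 libraries, numbered 1, 2, 4 and 5) had received 55 mg/kg of streptozotocin, a toxin of insulin-producing cells, and showed hyperglycaemia. The control group (5 libraries, numbered 1, 3, 4, 5 and 6) had received citrate buffer and had normal blood glucose. Injections were given at 8 to 10 weeks of age after 12 hours without food, retinas were taken 4 weeks later, and diabetic rats got 2 units of insulin when glucose passed 30 mmol/l. The labels do not say whether a library is a single rat or a pool, so p-values measure the spread between libraries. Streptozotocin itself and the diabetes it causes cannot be told apart in this design.

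Activating receptors such as Fcgr1a (CD64, the high-affinity receptor) and Fcgr3a (CD16-2 in RefSeq) signal through Fcer1g, the common gamma chain. The cytoplasmic tail of Fcer1g carries an activation motif called ITAM. Src family kinases phosphorylate that motif, Syk docks on it, and adaptors, phospholipase C gamma and actin regulators follow. Fcgr2b is the inhibitory receptor: its tail carries the inhibitory motif ITIM, which recruits the lipid phosphatase SHIP1, the product of Inpp5d. Fcgrt, the neonatal Fc receptor, pairs with beta-2 microglobulin and returns antibody from endosomes to the cell surface. Microglia express receptors of both kinds.

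Total counts ran from 6228756 in diabetic 4, the shallowest library, to 11332823 in control 3. Microglia markers were abundant everywhere, with a summed level of 23534 to 27359 normalised CPM (counts scaled by library size and TMM factor) in control and 22078 to 23661 CPM in diabetic libraries. CD11b also admits other myeloid cells, and their markers differed between libraries. The border macrophage list, with 10 of 11 genes in the table, summed to 419.6 to 873 CPM in control and 724 to 1589 CPM in diabetic libraries, with Cd209b at 0 throughout. The neutrophil list (12 of 12 genes) summed to 1.72 to 14.6 and 30.9 to 92.8 CPM, with the granule genes Ltf and Mpo at 0. Monocyte markers (10 of 11) summed to 227 to 2750.1 and 385 to 654 CPM, with Ccr2 and Cd177 at 0. The highest sums were those of controls 4 and 6, where Nr4a1 alone stood at 1368 and 2480 CPM. Nr4a1 is also in the cell isolation response list below. Of the 6 tested monocyte markers, 4 were higher in diabetic libraries at an unadjusted edgeR p below 0.05 and 0 lower. Over all genes the shares were 8.94% higher and 10% lower. Controls 4 and 6 stood apart in the cell isolation response list (18 of 19 genes), with 24009 and 32790.0 CPM. The other controls had 4064 to 9232 CPM and the diabetic libraries 12292 to 19018 CPM. Lymphocyte and natural killer markers (12 of 13) summed to no more than 4.25 CPM in any library, and mast cell markers (10 of 10) to no more than 3.45 CPM. In sorted bulk samples, fewer cells of a type and less RNA per cell cannot be told apart.

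Promoter sequences are shown for Fcgr3a and Fcgrt, a pair of members whose ratio separated the groups, as described further on. The RefSeq promoter table (build GRCr8) matched 4 of the 7 members. Each sequence is the 250 bases before the start site, 5′ to 3′ on the gene's own strand, and capitals mark the motif match named in the next paragraph. Fcgr3a lies at chr13:85782386-85782635 on the plus strand and Fcgrt at chr1:104720027-104720276 on the minus strand.
Fcgr3a: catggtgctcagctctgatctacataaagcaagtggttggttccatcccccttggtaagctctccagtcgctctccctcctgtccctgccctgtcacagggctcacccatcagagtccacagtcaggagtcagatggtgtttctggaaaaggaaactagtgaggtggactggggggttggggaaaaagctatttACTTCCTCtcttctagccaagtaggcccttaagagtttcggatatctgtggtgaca
Fcgrt: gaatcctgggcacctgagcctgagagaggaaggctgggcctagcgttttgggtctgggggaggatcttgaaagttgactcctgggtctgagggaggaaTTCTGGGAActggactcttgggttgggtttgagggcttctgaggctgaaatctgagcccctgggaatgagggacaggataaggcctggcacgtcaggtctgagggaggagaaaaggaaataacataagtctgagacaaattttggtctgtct

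Motifs were searched on both strands of these windows: GAGGAAGT, the site of the myeloid factor PU.1; TTCNNNGAA, the GAS element of STAT factors; CACGTG, an E-box; and TGACGTCA, a cyclic AMP response element. The Fcgr3a window held the PU.1 letters on the opposite strand, beginning 56 bases before the start, and 2.04% of the 33469 promoter windows in the table held that motif. The Fcgrt window held the GAS letters on its own strand, 152 bases before the start, and 7.67% of windows held that motif. The E-box and the cyclic AMP element, present in 5.59% and 1.59% of windows, had no match in either sequence. The windows of Fcgr2a and Syk, the other members in the promoter table, held no match to any of these motifs. A match describes these letters only.

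Among the activating receptors, Fcgr1a showed the clearest difference. It was at 146 CPM in control 1, 173 CPM in control 3, 120.3 CPM in control 4, 136 CPM in control 5 and 135 CPM in control 6. In diabetic libraries it was at 207, 171, 197 and 181 CPM in numbers 1, 2, 4 and 5. Diabetic 1, 4 and 5 lay above every control, and diabetic 2 lay just under control 3. The means were 142 ± 19.6 CPM (SD, n = 5) and 189 ± 16.3 CPM (SD, n = 4), for a log2 fold change of 0.41 (SE 0.14) with an adjusted p of 0.109 over all genes in edgeR's quasi-likelihood test, short of the threshold of 0.05. The unadjusted p in the same fit was 0.00288, and 18.9% of all tested genes had an unadjusted p below 0.05. Without controls 4 and 6 the log2 fold change of Fcgr1a was 0.31 (edgeR adjusted p = 0.23), the lowest of the alternatives tried. The libraries with the highest Fcgr1a in each group, control 3 and diabetic 1, were also those with the highest border macrophage sums in each group (873 and 1589 CPM), and the neutrophil sums separated the groups (at most 14.6 CPM in control, at least 30.9 CPM in diabetic libraries). The part of those cells in the result was not tested.

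Fcgr3a, another activating receptor, did not share that difference. Control libraries 1, 3, 4, 5 and 6 held 221, 258, 205, 206 and 236 CPM, and diabetic libraries 1, 2, 4 and 5 held 235, 231, 264 and 197 CPM. The groups overlapped from end to end, with the highest and the lowest values both in diabetic libraries. The means were 225 ± 22.02 CPM (SD, n = 5) and 231 ± 27.4 CPM (SD, n = 4), with a log2 fold change of 0.040 (SE 0.11, edgeR adjusted p = 0.862). The sign of that small value turned without diabetic 4, to -0.029. In the authors' annotation this symbol belongs to ENSRNOG00000024382 (Rnor6 chromosome 13, 89385859 to 89396051, plus strand). RefSeq gives CD16-2 and Fcgr4 as synonyms of Fcgr3a. It lists Fc gamma RIII, Fcgr3 and also Fcgr3a as synonyms of Fcgr2a. Under RefSeq's names, the receptor called Fc gamma RIII is therefore Fcgr2a and not this row.

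Fcgr2a was close to uncounted. It had 2, 3, 1, 0 and 7 counts in controls 1, 3, 4, 5 and 6 and 2, 2, 0 and 4 counts in diabetic 1, 2, 4 and 5, so it missed the filter on low counts and was not tested. A count of 0 allows up to 0.328 CPM in control 5 and 0.482 CPM in diabetic 4, for counting error only. Its related RefSeq gene Fcgr2al1 lies beside it on GRCr8 chromosome 13. Reads that fit both could be split or lost in counting, so this row is uncertain as a level of Fcgr2a.

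The authors' transcript assemblies also held unnamed models near Fcgr3a. Between 89420556 and 89433909 on Rnor6 chromosome 13, starting 24504 bases past the end of Fcgr3a, all 9 libraries had assembled models, 7 to 10 in each, and 0 of them carried a reference identifier. Spliced models inside this block numbered 2 to 5 per library, all on the minus strand, and 14 further models over the 9 libraries ran from the block into Fcgr2b. The highest exon coverage in the block was 83.8 to 146 reads per base in control and 53.2 to 136 in diabetic libraries. Summed over exons on both strands, aligned bases in the block came to 27.9%, 31.6%, 35.3%, 23.8% and 55.7% of those in Fcgr2b in controls 1, 3, 4, 5 and 6. The corresponding shares were 28.4%, 31.0%, 32.7% and 24.1% in diabetic 1, 2, 4 and 5. Control 6 stood above the rest and the groups overlapped, with means of 34.9% ± 12.4 (SD, n = 5) and 29.0% ± 3.73 (SD, n = 4). Fcgr3a measured the same way came to 18% to 36.2% in control and 19.3% to 28.0% in diabetic libraries, with means of 26.2% ± 6.63 and 22.3% ± 3.96 (SD). The block held more aligned bases than Fcgr3a in 8 of the 9 libraries, control 5 being the exception. On chromosome 13 of the newer GRCr8 assembly, RefSeq lists the receptor genes in the order Fcgr2b, Fcgr3a, Fcgr2a and Fcgr2al1. Rnor6 positions of Fcgr2a and Fcgr2al1 were not available, and the block was not assigned to a gene here.

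**Figure D1:**
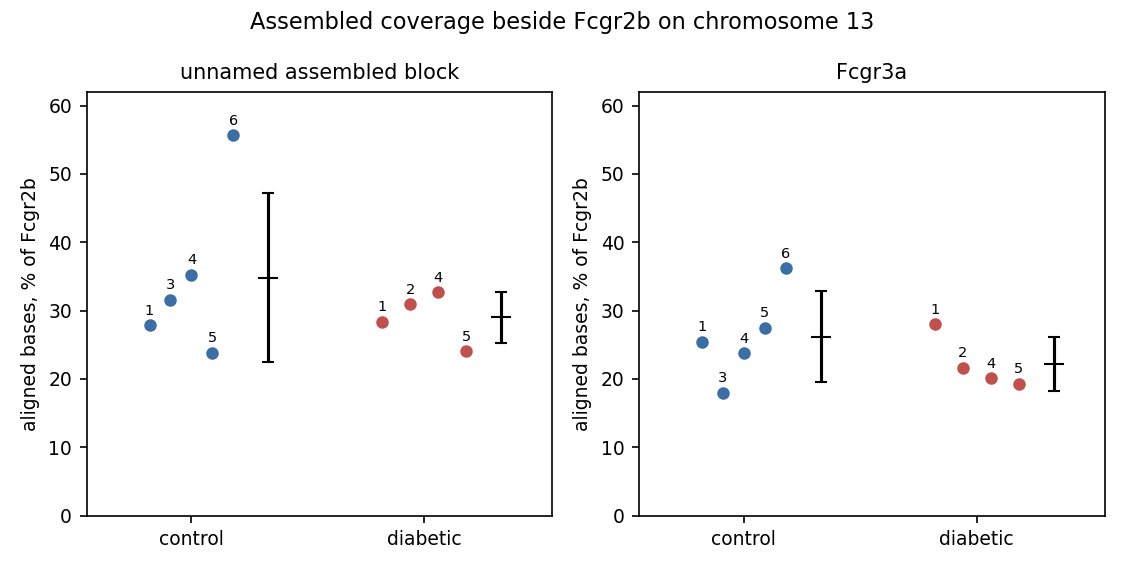
Aligned bases in the unnamed assembled block (left) and in Fcgr3a (right) on Rnor6 chromosome 13, each as a percent of those in Fcgr2b in the same library (y axis); points are libraries labelled by number, bars are mean ± SD for 5 control and 4 diabetic libraries. The block spans 23.8% to 55.7% among controls and 24.1% to 32.7% among diabetic libraries, with overlap in both panels.

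Fcgr2b, the inhibitory receptor, was the most highly counted receptor of the group. It was at 931, 1075, 925, 943 and 899 CPM in controls 1, 3, 4, 5 and 6. In diabetic 1, 2, 4 and 5 it was at 1044, 1108, 1076 and 1048 CPM. The diabetic values lay close together, above all controls except control 3, which reached into their range. Means were 955 ± 69.3 CPM (SD, n = 5) and 1069 ± 29.5 CPM (SD, n = 4), with a log2 fold change of 0.16 (SE 0.087, edgeR adjusted p = 0.278), and 0.11 without controls 4 and 6. The gene (ENSRNOG00000046452) spans 89329304 to 89343899 on Rnor6 chromosome 13, minus strand, and 8 of 9 assemblies held its 7-exon reference transcript at 124 to 204 TPM.

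Fcer1g, the chain that couples the activating receptors to Syk, was even across controls, at 747, 748, 836, 833 and 816 CPM in numbers 1, 3, 4, 5 and 6. Diabetic 1 and 2 lay within that range (787 and 804 CPM), diabetic 5 was above it (976 CPM) and diabetic 4 far above it (1351 CPM). The means of 796 ± 44.8 CPM (SD, n = 5) and 979 ± 262 CPM (SD, n = 4) gave a log2 fold change of 0.30 (SE 0.16, edgeR adjusted p = 0.278), and 0.10 without diabetic 4. Tyrobp (DAP12), the other ITAM chain of microglia, was also highest in diabetic 4, at 1199 CPM, whereas diabetic 1, 2 and 5 had 734 to 862 CPM and controls 538 to 780.3 CPM. Its log2 fold change was 0.47 (SE 0.18, edgeR adjusted p = 0.153), and 0.29 without diabetic 4. Diabetic 4 was the shallowest library, and the part of depth in these values was not tested.

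Fcgrt stood at 491, 566, 409.9, 463 and 478 CPM in controls 1, 3, 4, 5 and 6. Diabetic 1, 2, 4 and 5 held 622, 555, 727 and 522 CPM. Diabetic 1 and 4 lay above every control, and diabetic 2 and 5 lay above every control but control 3. Means of 482 ± 56.5 CPM (SD, n = 5) and 607 ± 90.3 CPM (SD, n = 4) gave a log2 fold change of 0.33 (SE 0.14, unadjusted p = 0.0150, edgeR adjusted p = 0.171), and 0.23 without diabetic 4. Without controls 4 and 6 the log2 fold change of Fcgrt was 0.25. B2m, whose product is the partner chain of Fcgrt, averaged 909 ± 205 CPM over the controls (SD, n = 5) and 945 ± 143 CPM under diabetes (SD, n = 4), with a log2 fold change of 0.055 (edgeR adjusted p = 0.870) that turned to -0.021 without control 1 and -0.054 without diabetic 4. Fcgrt (ENSRNOG00000020583) lies on Rnor6 chromosome 1, 101086877 to 101095594, minus strand.

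Syk, the kinase itself, was far less counted than the chain it docks on. Its values were 45.9, 35.5, 30.3, 34.5 and 35.6 CPM in controls 1, 3, 4, 5 and 6 and 42.1, 46.7, 52.7 and 32.99 CPM in diabetic 1, 2, 4 and 5. The ranges overlapped widely, with control 1 above diabetic 1 and diabetic 5 below 4 of the 5 controls. With 36.3 ± 5.74 CPM (SD, n = 5) and 43.6 ± 8.31 CPM (SD, n = 4), its log2 fold change was 0.26 (SE 0.17, edgeR adjusted p = 0.358), and 0.16 without diabetic 4 or without controls 4 and 6.

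Counted together, 0 of the 6 tested members passed an adjusted p of 0.05 by edgeR, against 0.0681% of all 11748 tested genes (0.0426% higher and 0.0255% lower in diabetic libraries). At an unadjusted p below 0.05 there were 2, Fcgr1a and Fcgrt, both higher in diabetic libraries, where 8.94% of all genes were called higher. DESeq2 called Fcgr1a alone (adjusted p = 0.0355), where it called 5.16% of all genes, and limma-voom called 0, where it called 0.034%. With the isolation response as covariate, edgeR called Fcgr1a and Fcgrt, and 12.5% of all genes. The log2 fold changes of all 6 were above 0, with a median of 0.28 beside 0.0017 for all tested genes. Their direction held under each scaling tried, and without diabetic 4 that of Fcgr3a turned. Groups were free of overlap for 0 of the 6, and for 8.44% of all genes (4.27% higher and 4.17% lower). In the authors' deposited table, where the median log2 fold change over all its genes was 0.12, Fcgr1a had a log2 fold change of 0.52 (adjusted p = 0.111) and Fcgrt 0.44 (adjusted p = 0.303), and 0 of the 6 listed members had an adjusted p below 0.05.

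**Figure D2:**
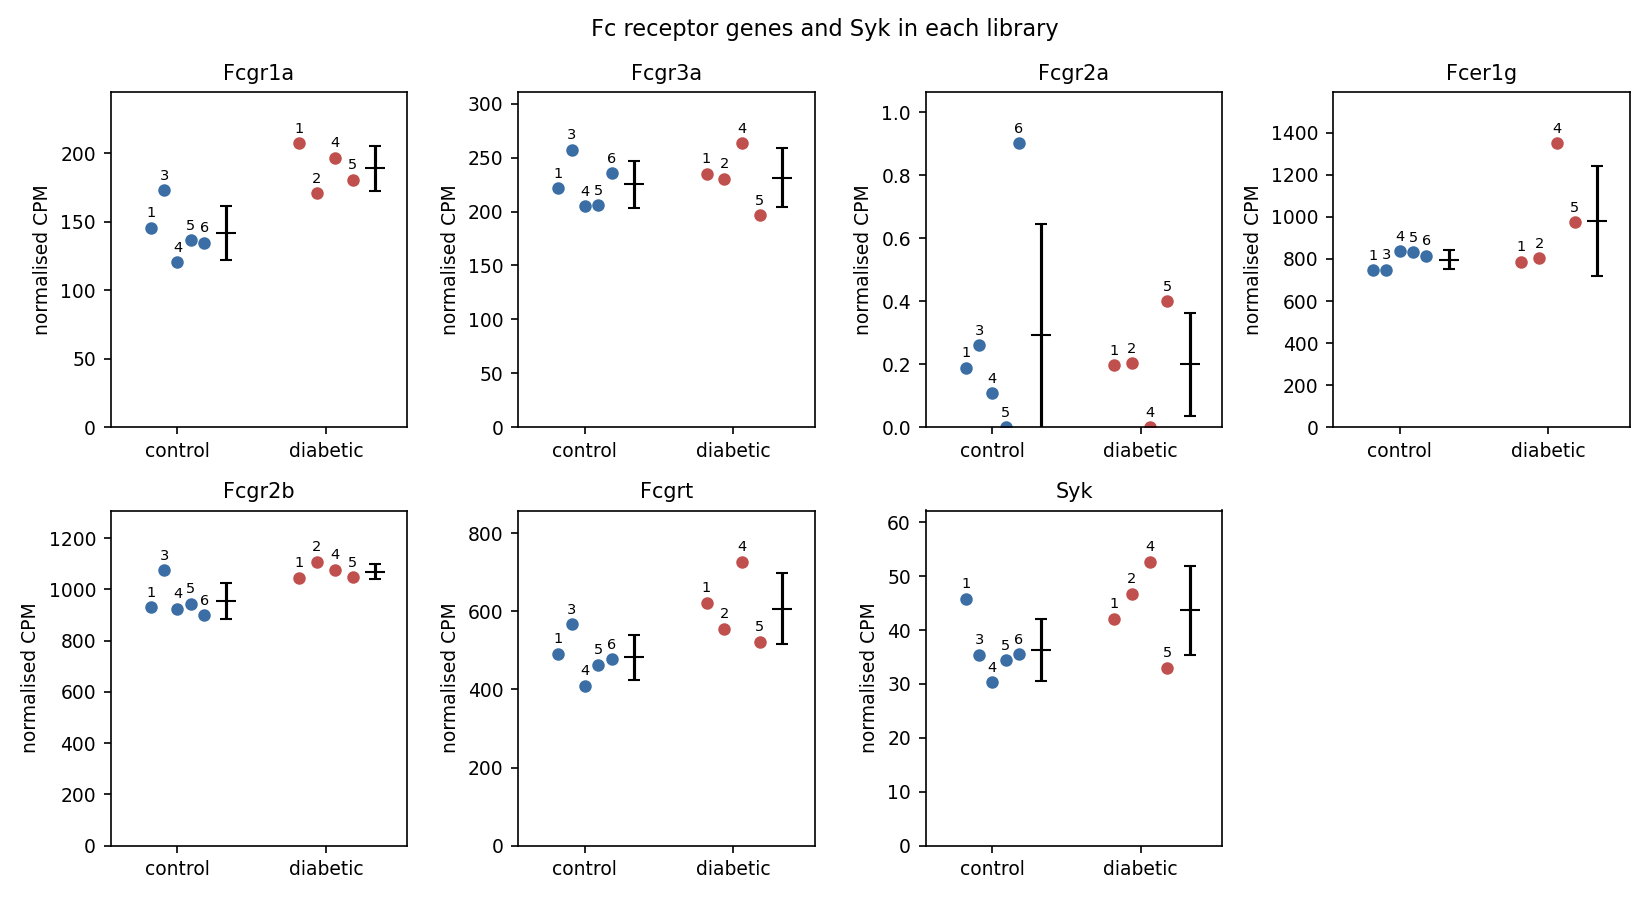
Normalised CPM (y axis, from 0) of the 7 genes in each library; points are libraries labelled by number, bars are mean ± SD for 5 control and 4 diabetic libraries. Fcgr1a is above every control in diabetic 1, 4 and 5, Fcgr3a overlaps from end to end, Fcer1g is highest in diabetic 4 at 1351 CPM, and Fcgr2a stays under 1 CPM in every library.

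Levels of different genes can be set side by side only per length, which the assemblies gave for 4 members through their reference transcripts. Fcer1g, with 631 exonic bases, was at 1261 ± 71.0 CPM per kilobase in control (SD, n = 5) and 1552 ± 415 in diabetic libraries (SD, n = 4). Fcgr2b (1505 bases) was at 634 ± 46.0 and 710.4 ± 19.6 CPM per kilobase. Fcgrt (1550 bases) followed with 311 ± 36.5 and 391 ± 58.2 CPM per kilobase, and Fcgr3a (1342 bases) with 168 ± 16.4 and 172.5 ± 20.4 CPM per kilobase. No neighbours in this order overlapped over the 9 libraries: Fcgr2b ran from 597 to 736, Fcgrt from 264 to 469 and Fcgr3a from 147 to 196 CPM per kilobase, and Fcer1g began at 1183. Each length is that of the gene's longest reference transcript in the assemblies. For Fcgr2b that transcript was in 1 assembly, at 3.86 TPM, and the 7-exon transcript held by 8 assemblies has 1395 bases. Assembled models of Fcgr2b ran on to 89327394, beyond the 3′ end of both reference transcripts, so its length may be understated.

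The balance of activating against inhibitory receptors was then read inside each library, where no scaling factor enters. For every 100 counts of Fcgr2b there were 39.4, 40.1, 35.2, 36.3 and 41.3 counts of Fcgr1a, Fcgr2a and Fcgr3a together in controls 1, 3, 4, 5 and 6. The diabetic libraries 1, 2, 4 and 5 had 42.4, 36.3, 42.8 and 36.0. Diabetic 1 and 4 were above the controls and diabetic 2 and 5 among the lowest, so the balance did not follow the groups. On the log2 scale the means were -1.38 ± 0.099 (SD, n = 5) and -1.35 ± 0.14 (SD, n = 4), a difference of 0.031 that is smaller than either spread. The unnamed block was not assigned to a gene, so what it holds may be missing from the sum.

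Within the activating class the receptors parted. Fcgr1a came to 15.6, 16.1, 13, 14.5 and 15 counts per 100 of Fcgr2b in the controls and to 19.9, 15.4, 18.3 and 17.2 in the diabetic libraries, in the same order of numbers. All diabetic libraries but diabetic 2 were above the controls, with a mean log2 difference of 0.25. For Fcgr3a the figures were 23.8, 24.0, 22.2, 21.9 and 26.2 in control and 22.5, 20.8, 24.5 and 18.8 in diabetic libraries, a mean log2 difference of -0.13. Of the 5 ratios of another tested member to Fcgr2b, 0 separated the groups, where 12.6% of all genes did so and 1.34% were higher.

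The ratio of Fcgr1a to Fcgr3a did separate them. It was 65.8, 67.1, 58.6, 66.1 and 57.1 counts per 100 in the controls and 88.2, 74.1, 74.7 and 91.9 in the diabetic libraries, so every diabetic library was above every control. The log2 means were -0.67 ± 0.11 (SD, n = 5) and -0.29 ± 0.16 (SD, n = 4), a difference of 0.38 that stayed between 0.33 and 0.43 when any 1 library was left out. Fcgrt over Fcgr3a separated the groups too, at 222, 220, 200, 225 and 203 per 100 in the controls and 264, 241, 276 and 266 in the diabetic libraries. Those 2 were the only ones without overlap among the 15 pairs of tested members. They were singled out after their values were seen, so no test is given, and 4.11% of all genes had a ratio to Fcgr3a without overlap, 2.92% in the higher direction.

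**Figure D3:**
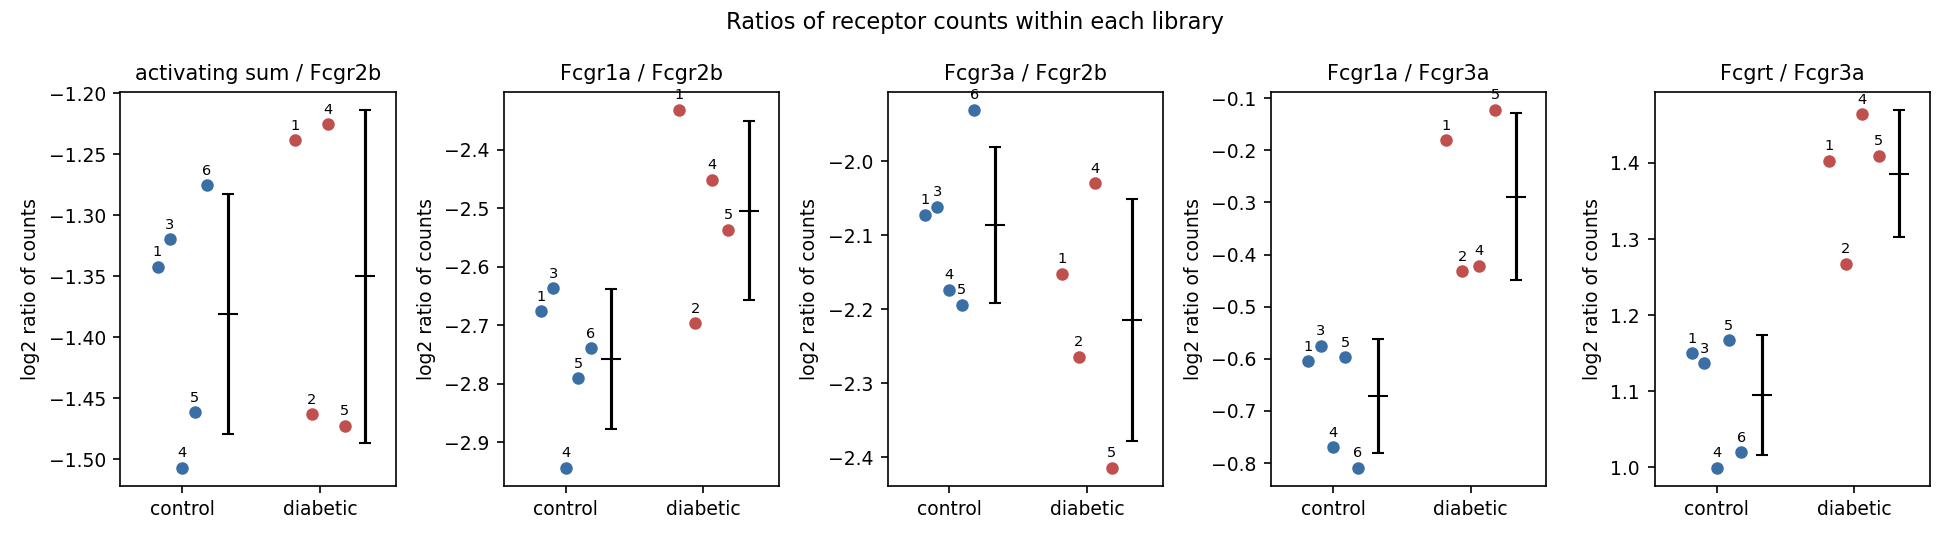
Log2 ratio of counts within each library (y axes differ and do not start at 0) for the activating sum, Fcgr1a and Fcgr3a over Fcgr2b, and for Fcgr1a and Fcgrt over Fcgr3a; points are libraries labelled by number, bars are mean ± SD for 5 control and 4 diabetic libraries. The first 3 panels overlap, and in the last 2 all 4 diabetic libraries are above all 5 controls.

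Around the receptors, 7 lists covered 105 genes of the pathway, 91 of them tested. By edgeR, 0 of 91 passed the adjusted threshold, DESeq2 called 11 (beside 5.16% of all genes) and limma-voom 0. In the authors' deposited table, 4 of the 91 had an adjusted p below 0.05: Fcrla, Dok3, Clec4d and Trem1. Among all genes of that table, 254 of 12069 did. At an unadjusted p below 0.05 there were 32 (35.2%, beside 18.9% of all genes), 13 higher and 19 lower. The groups did not overlap for 12 (13.2%, beside 8.44%). The median log2 fold change over the 91 was -0.070. Without normalization factors the median of all genes moved by about 0.12, and 52 in place of 40 of the 91 were then above 0.

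Other Fc receptors and partners had 5 of 7 tested genes above 0 and a median of 0.47. Fcrla, the Fc receptor-like A gene, averaged 20.4 ± 5.19 CPM over the controls (SD, n = 5) and 44.9 ± 10.3 CPM under diabetes (SD, n = 4). Its controls ran from 14.05 to 28.1 CPM and its diabetic libraries from 30.9 to 55.6 CPM, without overlap. Its log2 fold change was 1.14 (SE 0.30, edgeR adjusted p = 0.0608), and the authors' deposited table listed 1.26 with an adjusted p of 4.49e-06. Trim21, the antibody receptor of the cytosol, had a log2 fold change of -0.38 (edgeR adjusted p = 0.186).

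The list of Src family kinases and their switches leaned the other way. Of 12 Src family kinases and switches, 10 had a log2 fold change below 0, with a median of -0.18 (-0.054 without normalization factors, where 7 were below 0). Those below 0 included the regulators Csk, Pag1, Ptprc and Ptprj as well as kinases. At an unadjusted edgeR p below 0.05 there were 3 lower (25%, beside 10% of all genes) and 1 higher (8.33%, beside 8.94%). Lyn, the main Src kinase of many myeloid cells, was at 1018, 1120.0, 1107, 1095 and 1397 CPM in controls 1, 3, 4, 5 and 6 and at 868, 801, 846 and 921 CPM in diabetic 1, 2, 4 and 5. Every diabetic library lay below every control, and control 6 was the highest. Its log2 fold change was -0.42 (SE 0.13, edgeR adjusted p = 0.0930), and the authors' deposited table listed -0.29 with an adjusted p of 0.577. Yes1, a broadly expressed Src kinase, had -0.49 (edgeR adjusted p = 0.229).

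Syk's own adaptors and effectors had 16 of 22 genes below 0 and a median of -0.20 (-0.082 without normalization factors). At an unadjusted p below 0.05 there were 9 lower and 2 higher, which made 40.9% lower beside 10% of all genes. Without normalization factors the 9 became 3. Pik3ap1 (BCAP), the adaptor that brings in PI3 kinase, was at 463, 497, 632, 633 and 687 CPM in controls 1, 3, 4, 5 and 6 and at 387, 338, 399 and 384 CPM in diabetic 1, 2, 4 and 5. All diabetic libraries were below all controls, with a log2 fold change of -0.63 (SE 0.17, edgeR adjusted p = 0.0711). Btk, a Tec family kinase, had a log2 fold change of -0.33 (edgeR adjusted p = 0.124), again without overlap, and Lcp2, the adaptor SLP-76, had -0.34 (edgeR adjusted p = 0.156). Plcg2, the phospholipase downstream of Syk, had -0.31 (edgeR adjusted p = 0.217). Without controls 4 and 6, Lcp2 was at -0.22 and Plcg2 at -0.20. In the authors' deposited table Pik3ap1 had -0.50 (adjusted p = 0.176) and Btk -0.22 (adjusted p = 0.580). That table listed Lcp2 at -0.21 (adjusted p = 0.631) and Plcg2 at -0.18 (adjusted p = 0.673).

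Inhibitory phosphatases, adaptors and ligases were mixed, with 6 of 13 tested genes above 0. The Dok adaptors, which dampen such signals, held the 3 smallest p-values and all had positive fold changes. Dok3 averaged 18.6 ± 2.07 CPM over the controls (SD, n = 5) and 31.2 ± 5.79 CPM under diabetes (SD, n = 4), with no overlap (16.0 to 21.1 CPM in control, 23.2 to 35.5 CPM in diabetic libraries) and a log2 fold change of 0.74 (SE 0.21, edgeR adjusted p = 0.0756). Dok1 had a log2 fold change of 0.44 (edgeR adjusted p = 0.126) and Dok2 0.86 (edgeR adjusted p = 0.156), or 0.51 without diabetic 1, where it was at 25.6 CPM. The effectors of Fcgr2b and other ITIM receptors gave small values: Inpp5d -0.070 (edgeR adjusted p = 0.761; 0.046 without normalization factors) and Ptpn6, the phosphatase SHP-1, 0.079 (edgeR adjusted p = 0.670).

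Actin effectors of engulfment had 11 of 14 genes below 0, and 8 without normalization factors. Actr2, a subunit of the Arp2/3 complex, averaged 623 ± 52.3 CPM over the controls (SD, n = 5) and 477 ± 29.4 CPM under diabetes (SD, n = 4), with a log2 fold change of -0.39 (SE 0.12, edgeR adjusted p = 0.0895). Nckap1l (HEM1), of the WAVE complex, averaged 1109 ± 104 CPM over the controls (SD, n = 5) and 849 ± 55.8 CPM under diabetes (SD, n = 4), with -0.39 (SE 0.12, edgeR adjusted p = 0.0927). For both, all diabetic libraries were below all controls. Actr3 had -0.43 (edgeR adjusted p = 0.127), or -0.26 without controls 4 and 6, and its highest control was control 6 with 1134 CPM. The authors' deposited table listed Actr2 at -0.26, Nckap1l at -0.26 and Actr3 at -0.29 (adjusted p = 0.562, 0.620 and 0.555).

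Of 10 tested other ITAM-coupled receptors, 8 were above 0, with a median of 0.61, and the leading genes had low levels. Clec4d, a C-type lectin, averaged 2.87 ± 0.961 CPM over the controls (SD, n = 5) and 8.64 ± 4.19 CPM under diabetes (SD, n = 4), with a log2 fold change of 1.59 (SE 0.48, edgeR adjusted p = 0.0895). Trem1 had 1.37 (edgeR adjusted p = 0.114) and Oscar 1.36 (edgeR adjusted p = 0.253), or 0.77 without diabetic 1. For all 3 the groups overlapped. The summed neutrophil markers did not overlap between the groups (at most 14.6 CPM in control and at least 30.9 CPM in diabetic libraries), and their part was not tested. Among ITIM receptors, 10 of 13 tested genes were above 0 with a median of 0.053, and Lair1, a collagen receptor, was without overlap at 6.32 to 7.46 CPM in control and 8.36 to 12.1 CPM in diabetic libraries (log2 fold change 0.56, edgeR adjusted p = 0.127). Cd33 had 0.21 and Lilrb3 0.37 (edgeR adjusted p = 0.294 and 0.318). Cd33 was at 0.11 without diabetic 4, and Lilrb3 at 0.15 without controls 4 and 6.

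**Figure D4:**
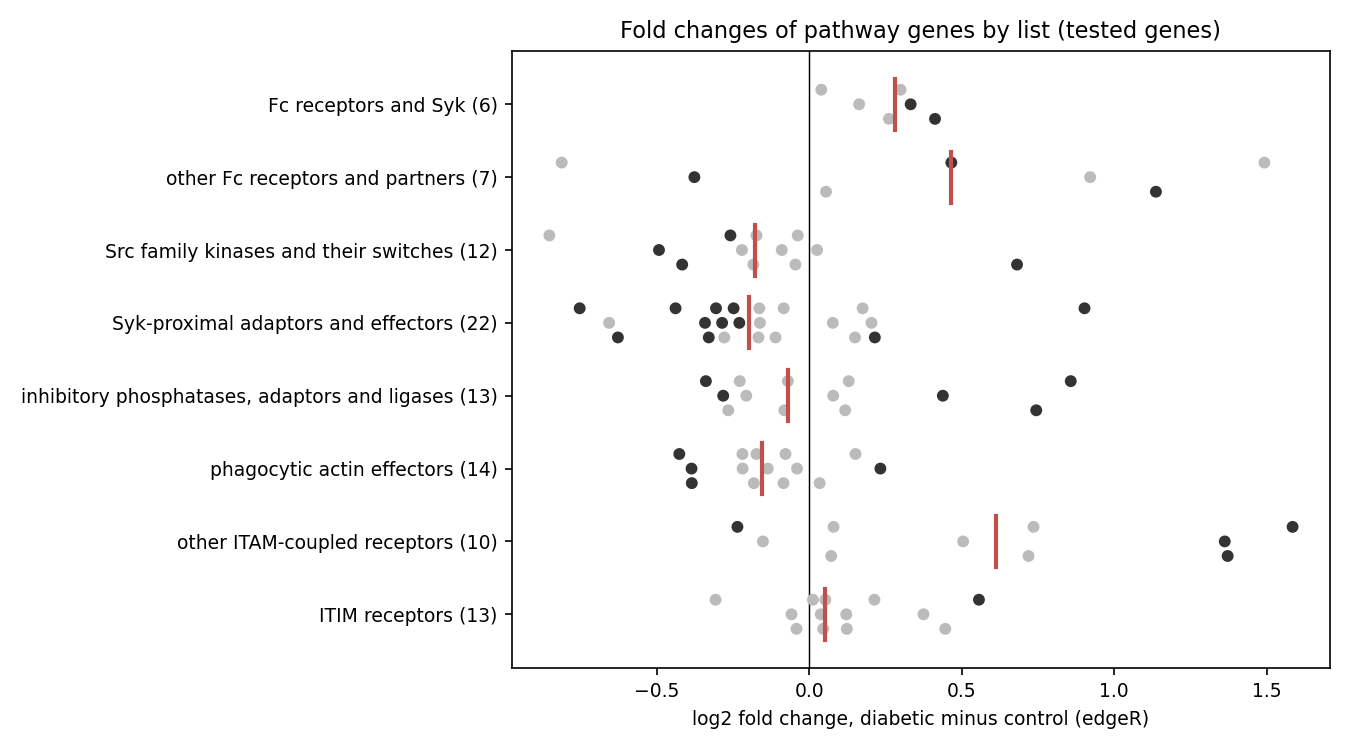
Log2 fold change, diabetic minus control, of each tested gene (x axis) by list (y axis, number tested in brackets); dark points have an unadjusted p below 0.05, and the red line is the list's median. The medians lie at 0.28 for the Fc receptors and Syk, -0.18 for the Src family list, -0.20 for the Syk-proximal list and 0.61 for the other ITAM-coupled receptors; without normalization factors these medians shift upward by about 0.12.

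Genes with the most similar profile were found by the mean absolute difference of standardised log2 CPM over the 9 libraries, in SD units, among 11747 others. For Fcgr1a they were Rarres1 (0.197), Me3 (0.212) and G0s2 (0.213), where the median over all genes was 1.09. G0s2 belongs to the neutrophil list, with a log2 fold change of 2.99 (edgeR adjusted p = 0.0711) and no overlap between the groups. Fcgrt was nearest to Tmem147 (0.177), Smpdl3a (0.219) and Pdcd7 (0.234). For Fcgr2b they were Ubxn6 (0.231), Mrps26 (0.242) and Neil1 (0.259), and for Fcgr3a Uqcrfs1 (0.277), Gm27029 (0.296) and Polr1c (0.301). Fcer1g was nearest to Lsm1 (0.204), Atp5g3 (0.230) and Atp5g2 (0.254), the last of these being genes of the mitochondrial ATP synthase. Syk was nearest to Tmem205 (0.199), Rltpr (0.204) and Tvp23b (0.212). With 9 libraries, this likeness describes these samples only.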

How the data were processed

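RNA was measured by sequencing in 9 libraries of sorted retinal cells, after a preamplification step per the labels' protocols. The authors deposited raw counts per gene symbol (the counter, and whether it used strand, not given in the sources used here). The authors' deposited comparison table lists each gene's log2 fold change with its raw and adjusted p-value. Transcript assemblies with TPM and coverage were made by StringTie 1.2.4 on the Ensembl Rnor6 annotation, per the file headers. The submitters' processing notes name TopHat2 2.0.14, edgeR and Rnor_6.0.

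Of 17822 genes with any count, filterByExpr kept 11748 (minimum count 10, minimum total 15). They were scaled by TMM and tested with the quasi-likelihood test of edgeR 4.0.16 in R 4.3.3, without covariates, with Benjamini-Hochberg adjustment over all genes and a threshold of 0.05. SEs were derived from fold changes and p through the normal distribution. DESeq2 1.42.0, limma-voom (limma 3.58.1), other scalings, no filter, a replicate block, the mean of the isolation list as covariate, each library left out and controls 4 and 6 left out were tried. Profile likeness used log2 CPM with a prior count of 2. The fit was tested on simulated data. No 2 libraries agreed within sampling noise (chi-square of at least 11.7 per degree of freedom). The floors given for counts of 0 cover counting error only, since no molecular identifiers are named.

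Members, lists and tests were chosen with earlier results of these data known. Named were all members, B2m, Tyrobp, Lyn, Plcg2, Inpp5d and Ptpn6, the 3 genes with the smallest p in each pathway list, and the 3 nearest profiles per member; 1 gene that this rule takes is not reported here.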

Additional observations from a re-analysis of the deposited data

Results flagged for a closer look

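In 4 of 78 groups of values examined, the highest or lowest library stood apart from the others by more than Dixon's 95% limit, and chance gives about 1 group in 20. Fcgr2b was at 1075 CPM in control 3, against 899 to 943 CPM in the other controls. Lyn was at 1397 CPM in control 6, against 1018 to 1120.0 CPM in the other controls. Btk was at 156 CPM in control 3, against 132 to 138 CPM. Trem1 was at 5.80 CPM in control 6, against 1.505 to 2.64 CPM.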

How the results depend on the processing

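The count of all genes past the adjusted threshold was 8, and it was 29 without normalization factors, 31 with upper-quartile factors, 598 by DESeq2, 4 by limma-voom, 42 without a filter, 1464 with the isolation covariate, 0 without controls 4 and 6 and 0 to 75 with 1 library left out. The members called were 0, but 1 by DESeq2 (Fcgr1a) and 2 with the isolation covariate (Fcgr1a, Fcgrt). The pathway genes called were 0, but 1 without normalization factors, 1 with upper-quartile factors, 11 by DESeq2, 2 without a filter, 18 with the isolation covariate and 0 to 1 with 1 library left out. The replicate block gave 0 genes of any kind, with 1129 at an unadjusted p below 0.05. Libraries whose number occurs in a single group (control 3, control 6 and diabetic 2) do not inform that fit. It therefore had little power, and its 0 cannot show that differences are absent. Numbers 1, 4 and 5 occur in both groups, and their deviations correlated at 0.201, -0.114 and 0.0156, with number 1 alone correlating best with its own number. The labels do not state that a shared number pairs libraries, and these few correlations cannot decide it. Signs turned for Fcgr3a without diabetic 4 (-0.029; up to 0.11 with another library left out), for B2m without control 1 (-0.021) and diabetic 4 (-0.054; up to 0.20), for Inpp5d without factors (0.046) and with upper-quartile factors (0.0064), and for Ptpn6 without controls 4 and 6 (-0.026). The remaining results of the 31 genes taken by the naming rule kept their sign: of 527 alternatives, 488 stayed on the same side of the threshold and 33 moved past it. The log2 difference of the activating to inhibitory ratio was -0.13 with Fcgr2a and Fcgr3a alone and ran from -0.010 to 0.072 with 1 library left out; that of Fcgr1a to Fcgr3a, an alternative set chosen after seeing the data, was 0.30 without controls 4 and 6. TPM ratios were not run, since the Fcgr3a reference transcript was in 1 assembly. The causes were not tested.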

Other observations

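Among the members themselves, Fcgr1a and Fcgrt had the most similar profiles over the 9 libraries, with a mean absolute difference of 0.278 SD units, followed by Fcgr1a and Fcgr2b with 0.445. Fcer1g was the farthest from the rest, at 0.792 from Fcgrt and 1.02 from Fcgr3a.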
